A study of Arabidopsis thaliana with 54 samples.

Results

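Plants read light through small families of photoreceptors, and the genes described here are the 10 of Arabidopsis thaliana that encode the phytochromes (PHYA, PHYB, PHYC, PHYD, PHYE), the cryptochromes (CRY1, CRY2, CRY3) and the phototropins (PHOT1, PHOT2). They were chosen by name, as complete receptor families, from the 32833 gene identifiers in the count table. Their transcripts were followed in 54 RNA-seq libraries of whole 12-day-old Columbia 0 seedlings, shoot and root together. All seedlings grew for 10 days in equinox (EQ, 12 h light and 12 h dark) under light of 130 μmol m-2 s-1 with the temperature held at 22 °C, and spent the last 2 days in short day (SD, 8 h light and 16 h dark), EQ or long day (LD, 16 h light and 8 h dark). Whole seedlings were then harvested every 4 h from zeitgeber time 00 (ZT00, the hour of dawn) to ZT20, with 3 replicates, A to C, at each of the 6 time points in each of the 3 photoperiods. Every plant therefore shared the same EQ history, and SD and LD are a 2-day shift from it rather than growth in that photoperiod. Each replicate was a pool of seedlings from a single plate, by the methods of the study, so the p-values measure the spread between such pools. In whole seedlings, fewer cells of a type and less RNA per cell cannot be told apart.

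Phytochromes carry a bilin pigment and switch between a form that absorbs red light and a form that absorbs far-red light, the far-red-absorbing form being the active one. phyA is destroyed in light and acts mainly in far-red and very dim light, while phyB to phyE are light-stable, with phyB the main red-light receptor of green seedlings. Cryptochromes carry a flavin and absorb blue light: cry1 acts mainly in seedling greening and growth, cry2 in the timing of flowering by day length, and cry3 is a DNA-repair relative found in chloroplasts and mitochondria. Phototropins are blue-light-activated protein kinases at the plasma membrane. phot1 bends seedlings towards weak light, and phot2 is best known for moving chloroplasts away from strong light.

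The 5 phytochrome genes lie on 4 chromosomes in the TAIR10.1 RefSeq annotation, a build used here for names and positions. PHYA (AT1G09570) is at chr1:3095160-3100819, minus strand, and PHYB (AT2G18790) at chr2:8139756-8144461, plus strand. PHYC (AT5G35840) is at chr5:14007812-14011848, plus strand, PHYD (AT4G16250) at chr4:9195247-9199840, minus strand, and PHYE (AT4G18130) at chr4:10042137-10046346, minus strand. The cryptochrome genes are CRY1 (AT4G08920, chr4:5723651-5727268, plus strand), CRY2 (AT1G04400, chr1:1185512-1188696, minus strand) and CRY3 (AT5G24850, chr5:8535258-8538211, minus strand). PHOT1 (AT3G45780) is at chr3:16816721-16824210 and PHOT2 (AT5G58140) at chr5:23523825-23533111, both on the plus strand. PHOT2 stands apart from the other 9 in that a second gene, AT5G58150, lies on the opposite strand inside its last exon. PHYE overlaps its same-strand neighbour AT4G18140 by 60 bp, and no other member overlaps a gene on either strand.

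The PHYB promoter is shown because 3 of the 10 members (PHYB, PHYD and CRY3) hold the G-box, CACGTG, in the 250 bases before the gene, and PHYB holds it at 2 places. The G-box is a core sequence bound by bHLH and bZIP factors of light signalling, the phytochrome-interacting factors and HY5 among them. Capitals mark the G-boxes, which begin 146 and 111 bases before the annotated start, in RefSeq sequence of chr2:8139506-8139755, plus strand.
PHYB: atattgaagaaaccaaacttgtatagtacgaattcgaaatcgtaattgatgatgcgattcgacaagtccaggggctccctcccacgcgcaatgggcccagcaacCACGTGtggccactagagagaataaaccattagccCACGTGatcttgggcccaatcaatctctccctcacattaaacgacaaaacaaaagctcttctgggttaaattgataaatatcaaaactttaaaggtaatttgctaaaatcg

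Over all 27444 nuclear protein-coding genes, 6.49% of windows of that length held a G-box on either strand, a palindrome that reads alike on both. The G-box of PHYD began 75 bases and that of CRY3 7 bases before the start. The evening element AAAATATCT (2.36% of windows), the CCA1-binding site AAAAATCT (6.69%) and the I-box GATAAG (12.3%), each searched on both strands, were in the windows of none of the 10 members. A match is a string of letters and not a bound site.

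The PHOT2 locus carries the second sequence that the results turn on. The longest last exon of PHOT2 runs over chr5:23529871-23533111, plus strand, 3241 bp of which only the first 123 bp are coding, and the whole of AT5G58150, at chr5:23530081-23532840 on the minus strand, lies within it. AT5G58150 is 2760 bp long. The same 30 bases, chr5:23532544-23532573, are read below from both strands, with capitals on the start codon of AT5G58150.
PHOT2 strand (plus): caggagagatccccatagagacaacctCAT
AT5G58150 strand (minus): ATGaggttgtctctatggggatctctcctg

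Values are counts per library, or CPM (counts scaled to a common library total) after TMM scaling, which corrects for differences in library composition. Library totals without spike-ins ran from 2976677 to 3941391 counts for SD, from 2454744 to 4124570 for EQ and from 2430049 to 4114579 for LD. Summed CPM of 5 shoot genes (RBCS1A, RBCS2B, CAB1, RCA, SBPASE) ranged over 635 to 3540 in SD libraries, 791 to 2808 in EQ libraries and 1021 to 3683 in LD libraries. The sum of 6 root genes, led by PYK10, ranged over 1329 to 3761 CPM for SD, 1677 to 3898 CPM for EQ and 1656 to 4097 CPM for LD. That root sum was close to PYK10 alone, which averaged 8439 counts per library. TIP2-2 averaged 29.5 counts, CASP1 4.37, RCI3 2.56 and TIP2-3 1.09, the last 3 being at 0 in 36, 39 and 42 libraries. NRT2.1, a nitrate transporter of roots, was at 0 in all 54 libraries. The part of shoot and root RNA in the results was not tested.

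The receptor genes spanned a wide range of level, with the phototropins on top and 3 members barely counted. Per kb of exon, mean CPM over the 54 libraries was 15.8 for PHOT2, 6.03 for PHOT1, 2.56 for PHYE, 2.4 for CRY1, 1.27 for CRY2, 0.929 for PHYA and 0.631 for PHYB. CRY3 had 0.125, PHYC 0.103 and PHYD 0.0761 CPM per kb. In that order, only the step from PHOT1 to PHYE was larger than 1 standard deviation over libraries of both genes. The other neighbours in the order did not differ beyond that spread. For PHOT2 the standard deviation was 15.7 CPM per kb, more than its step to PHOT1. It included 1 LD library at 543 CPM and 1 at 733 CPM, against a PHOT2 median of 89.4 CPM. This spread also mixes time points and photoperiods, and the genes were not compared within libraries.

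Counts per library differed widely among the members. PHOT2 averaged 366 counts per library, PHOT1 71.4, PHYE 33.3, CRY1 23.5, PHYA 15.9, CRY2 11.5 and PHYB 9.37. PHYC averaged 1.26 counts and was at 0 in 45 of 54 libraries, PHYD 0.981 counts and 0 in 47, and CRY3 0.796 counts and 0 in 50. PHOT1, PHOT2, PHYE and CRY1 were above 0 in all 54, whereas PHYA was at 0 in 10, CRY2 in 12 and PHYB in 16. In all, 180 of the 540 member values were 0 and none was 1 or 2. The same gap held for other weakly counted genes. In the 1353 genes with a mean of 8 to 12 counts, 28.3% of values were 0 and 1.18% were 1 or 2. Counting error alone, as Poisson counts at those means, would put 0.00928% of values at 0. What made these zeros was not tested, and a single 0 is given here as a listed value and not as absence of the transcript.

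**Figure D1:**
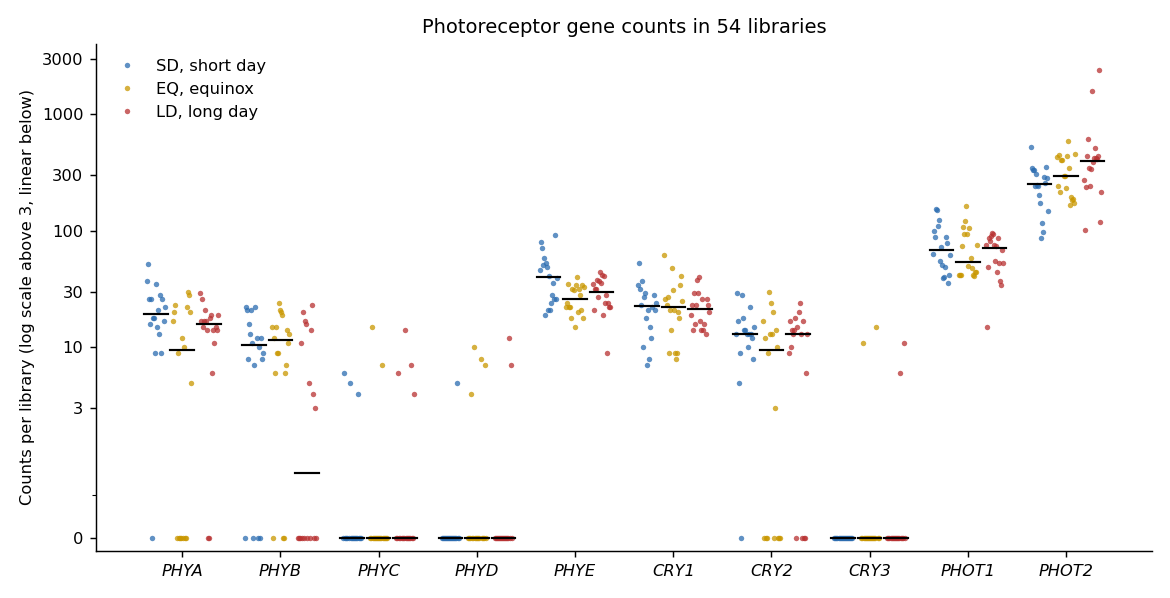
Counts per library of the 10 photoreceptor genes in SD, EQ and LD, with 1 point per library (18 per photoperiod) and a bar at the median, on an axis that is logarithmic above 3 counts and linear below. PHOT2 and PHOT1 stand highest, PHYC, PHYD and CRY3 lie at 0 in most libraries, and 2 LD libraries reach 1580 and 2405 counts for PHOT2.

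A lack of an overlapping opposite-strand gene also went with low counts across the genome. The 20688 nuclear protein-coding genes without one, to which 9 of the 10 members belong, had a median of 0.574 mean counts and held 11.0% of the counts of such genes. The 6756 genes with one had a median of 14.8 and held 89.0%. The part of strand assignment in the levels was not tested, so the CPM per kb of each member was also ranked against the genes without an overlap. There PHOT2, itself overlapped, would stand at percentile 97.7, PHOT1 at 94.0, PHYE at 88.0 and CRY1 at 87.3. CRY2 stood at percentile 80.8, PHYA at 77.3, PHYB at 72.6, CRY3 at 51.8, PHYC at 49.6 and PHYD at 46.0.

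PHYC, PHYD and CRY3 could be given as totals only. PHYC, a light-stable phytochrome, summed to 15 counts in SD, 22 in EQ and 31 in LD over 18 libraries each. PHYD, the closest relative of PHYB, summed to 5 counts in SD, 29 in EQ and 19 in LD. CRY3 had 0 counts in the 18 SD libraries, against 17 in LD and 26 in EQ. Under counting error alone a total of 0 would allow up to 3 counts over the SD libraries, or 0.0493 CPM. Zeros were far more frequent here than counting error gives, so that value is not an upper limit for CRY3. The CRY3 counts of LD and EQ came from 4 libraries, with 11 and 15 counts in 2 EQ libraries and 6 and 11 in 2 LD libraries. PHYC and PHYD did not pass the filter on low counts. CRY3, counted in those 4 libraries only, passed it and gave no usable fit, with a p near 1 for every log2 fold change. In edgeR its p for variation over the time points was 0.149 in EQ and 0.189 in LD. Intervals and limits from counts cover counting error only.

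Day-wide differences between photoperiods asked whether a receptor gene was higher over the whole day in one photoperiod than in another. A comparison averaged the 6 time points of each photoperiod in edgeR's quasi-likelihood test over 14115 genes, 8 members among them, and called a gene at a false discovery rate (FDR, the Benjamini-Hochberg adjusted p) under 0.05. For SD minus LD, 12.0% of all genes and 2 of the 8 members passed, PHYE higher and PHOT2 lower in SD. For SD minus EQ, 4.99% of genes and 1 member, PHYE, passed. For LD minus EQ, 1.35% of genes and 0 members passed in edgeR, with 3 members at an unadjusted p under 0.05 and 0 by DESeq2. These comparisons share libraries in pairs, so they are not independent of each other.

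PHYE, a light-stable phytochrome, was higher over the day in SD than in both other photoperiods, with its largest single-time differences at ZT00. The edgeR test of whether its daily pattern differed between photoperiods did not pass (FDR = 0.332), so a difference particular to dawn is not shown. At ZT00 it had 46, 80 and 71 counts in SD, against 35, 21 and 32 in LD and 22, 24 and 35 in EQ, and no SD library overlapped the others. At ZT04 the counts were 51, 59 and 19 in SD, 32, 38 and 27 in LD and 22, 22 and 18 in EQ. At ZT20 they were 92, 26 and 39 in SD, 24, 22 and 22 in LD and 34, 18 and 33 in EQ, so 1 SD library stood well above the rest.

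From ZT08 to ZT16 the raw counts of SD overlapped those of LD and of EQ. PHYE had 53, 49 and 21 counts in SD, 37, 44 and 36 in LD and 32, 31 and 15 in EQ at ZT08. At ZT12 it had 41, 21 and 24 in SD, 42, 19 and 41 in LD and 34, 40 and 20 in EQ. At ZT16 it had 28, 36 and 26 in SD, 24, 28 and 9 in LD and 32, 28 and 21 in EQ. In CPM the SD libraries at ZT16 (7.72 to 8.77) lay above those of LD (2.95 to 7.38) and within the range of EQ (6.89 to 10.9). The log2 fold change of SD minus LD was 0.49 there (FDR = 0.586, edgeR). Over the day, SD libraries ran from 19 to 92 counts with a median of 40, LD libraries from 9 to 44 with a median of 30, and EQ libraries from 15 to 40 with a median of 26.

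The day-wide log2 fold change of PHYE was 0.49 for SD minus LD (SE 0.155, FDR = 0.0305) and 0.56 for SD minus EQ (SE 0.155, FDR = 0.0242, edgeR). LD and EQ differed by 0.07 (95% interval -0.24 to 0.39). At ZT00 alone the log2 fold change was 1.12 for SD minus LD and 1.19 for SD minus EQ, with edgeR FDR of 0.229 and 0.355, so no single time point passed. The day-wide calls rested on all 3 replicates: with 1 replicate letter left out the SD minus LD value stayed between 0.41 and 0.58 but its FDR lay between 0.0603 and 0.337, and that of SD minus EQ between 0.106 and 0.295. The SD minus LD call was also lost with no filter on low counts (FDR = 0.0933) and without LD ZT08 replicate C and LD ZT20 replicate A (FDR = 0.0530), the SD minus EQ call with no filter (FDR = 0.0802). The daily expression integral, the area under the mean CPM curve over 24 h, was 307 ± 29.1 CPM h in SD, against 215 ± 10.1 in LD and 199 ± 11.8 in EQ (SE, n = 3 per time point). Its log2 ratio was 0.51 (SE 0.152) for SD over LD and 0.63 (SE 0.161) for SD over EQ.

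**Figure D2:**
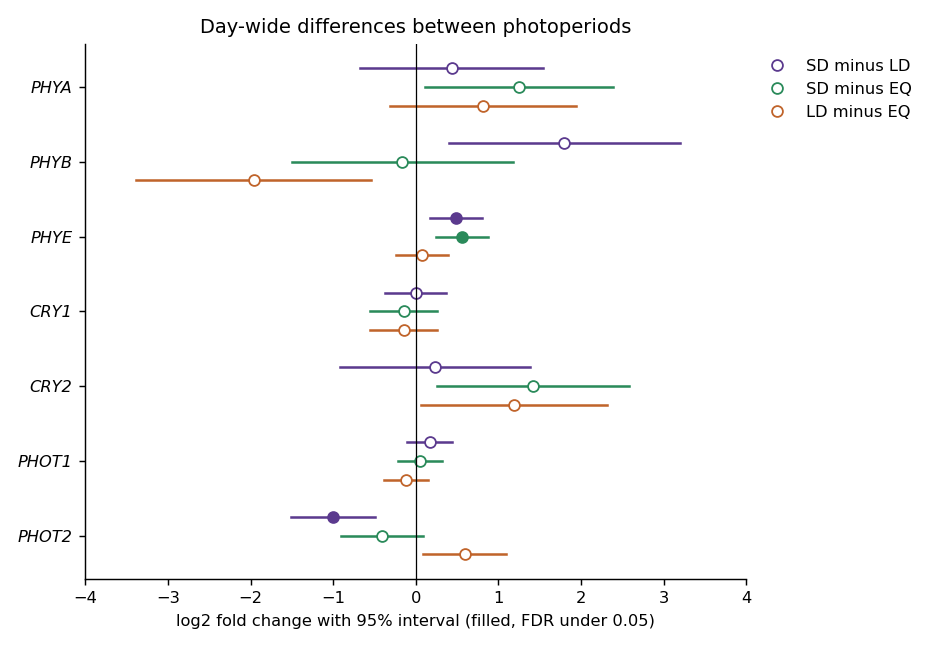
Day-wide log2 fold change (horizontal axis) of 7 photoreceptor genes for SD minus LD, SD minus EQ and LD minus EQ, with 95% intervals and filled points where the FDR was under 0.05. PHYE is above 0 for SD minus LD (0.49) and SD minus EQ (0.56), PHOT2 is at -1.0 for SD minus LD, and CRY1 and PHOT1 lie close to 0 in every comparison.

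The other phytochromes had wider intervals. PHYB, at 0 in 4 SD, 9 LD and 3 EQ libraries, ran over 0 to 22 counts in SD with a median of 10.5, over 0 to 23 in LD with a median of 1.5, and over 0 to 24 in EQ with a median of 11.5. Its day-wide log2 fold change was 1.80 for SD minus LD (SE 0.693, FDR = 0.0902 in edgeR, 0.0414 in DESeq2) and -1.96 for LD minus EQ (SE 0.701, FDR = 0.208). PHYA, the light-labile phytochrome, ran over 0 to 52 counts in SD with a median of 19.5, over 0 to 29 in LD with a median of 16, and over 0 to 30 in EQ with a median of 9.5. PHYA gave 0.44 for SD minus LD (95% interval -0.67 to 1.54) and 1.25 for SD minus EQ (SE 0.561, FDR = 0.235), neither of which passed.

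No cryptochrome was called between photoperiods over the day, by edgeR. CRY1 had 7 to 53 counts in SD with a median of 22.5, 13 to 40 in LD with a median of 21.5, and 8 to 62 in EQ with a median of 22. Its SD minus LD difference lay between -0.37 and 0.36 on the log2 scale (95% interval), SD minus EQ between -0.55 and 0.26, and LD minus EQ between -0.55 and 0.26. CRY2 had 0 to 29 counts in SD with a median of 13, 0 to 24 in LD with a median of 13, and 0 to 30 in EQ with a median of 9.5. CRY2 gave 1.42 for SD minus EQ (95% interval 0.26 to 2.58, FDR = 0.172) and 1.19 for LD minus EQ (95% interval 0.06 to 2.31, FDR = 0.419), with 7 EQ libraries at 0.

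PHOT1 was not called between photoperiods over the day either, by edgeR. It had 36 to 154 counts in SD with a median of 68, 15 to 96 in LD with a median of 71, and 41 to 164 in EQ with a median of 54.5. The 95% interval of its day-wide difference was -0.10 to 0.44 for SD minus LD, -0.22 to 0.32 for SD minus EQ and -0.39 to 0.15 for LD minus EQ.

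PHOT2 was the member with the largest day-wide call, and that call was lost once 2 libraries were left out. In LD ZT08 replicate C it had 1580 counts and in LD ZT20 replicate A 2405, against 86 to 611 in the other 52 libraries (median 291). In those same 2 libraries AT5G58150, the gene inside its last exon, had 301 and 297 counts, against 1385 to 3018 in the other 52. The sum of both genes was 1881 and 2702, within the 1618 to 3549 of the other libraries, and PHOT2 made up 84.0% and 89.0% of it, against 3.73% to 23.4% elsewhere. High PHOT2 and low AT5G58150 thus came together, in libraries of different time points and different replicate letters.

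Across the 54 libraries the Pearson correlation of the counts of both genes was -0.60, and over the 52 libraries without those it was 0.03, given as descriptions of genes that share their library depth. Among 2823 genes with a mean of at least 30 CPM, PHOT2 was the only one over 1.5 times its highest other library in both, and AT5G58150 the only one under its lowest other library by that factor. Counts on genes without an opposite-strand partner made up 9.55% and 10.4% in these 2 libraries, inside the range of 9.10% to 13.1% over all. The part of strand assignment at this locus was not tested.

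**Figure D3:**
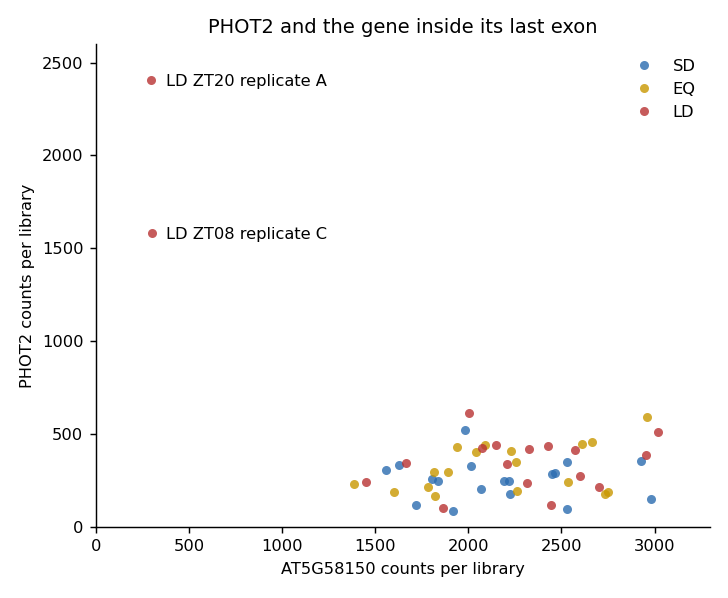
Counts per library of PHOT2 (vertical axis) and of AT5G58150 (horizontal axis), 1 point per library, coloured by photoperiod. LD ZT08 replicate C and LD ZT20 replicate A lie at 1580 and 2405 PHOT2 counts with 301 and 297 counts of AT5G58150, while the other 52 libraries stay at 611 PHOT2 counts or fewer.

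With all libraries the day-wide log2 fold change of PHOT2 was -1.0 for SD minus LD (SE 0.25, FDR = 0.00428, edgeR). Without the 2 libraries, an alternative chosen after seeing the data, it was -0.36 (SE 0.147, FDR = 0.132). Leaving out all libraries of replicate C, the LD ZT08 one among them, also ended the call, at -0.80 (FDR = 0.130). It held without replicate A, which holds the LD ZT20 library, at -0.73 (FDR = 0.0488), and without replicate B at -1.16 (FDR = 0.0202). The integral ratio behaved alike, at -1.07 (SE 0.424) with and -0.36 (SE 0.138) without the 2 libraries. AT5G58150 itself gave 0.06 for SD minus LD (FDR = 1.0). With the counts of both genes added into 1 feature, SD minus LD was -0.13 (SE 0.043, FDR = 0.0430).

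Single time points were then compared between photoperiods, as a gene can shift its phase without a change over the day. Of 11681 genes tested in at least 1 of the 18 comparisons, 22.4% passed in at least 1. PHOT2 was the only member to do so, at 3 comparisons in edgeR, and DESeq2 called 3 members in at least 1. None of the 3 PHOT2 calls involved the 2 libraries that stood apart.

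At ZT12, when SD seedlings had been dark for 4 h and LD and EQ seedlings were still in light, PHOT2 had 174, 86 and 116 counts in SD, 389, 419 and 508 in LD and 442, 589 and 349 in EQ. Every SD library was below every LD and EQ library. The log2 fold change was -1.59 for SD minus LD (SE 0.229, FDR = 0.0119, with 13.0% of genes called) and -1.79 for SD minus EQ (SE 0.231, FDR = 0.00548, with 17.9% called). At ZT16, with LD in light and EQ in darkness, PHOT2 had 422, 411 and 438 counts in LD and 167, 195 and 185 in EQ, with no overlap. LD minus EQ was 1.08 there (SE 0.142, FDR = 0.00622, with 14.2% of genes called).

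These 3 calls kept their direction but not their threshold when the data were handled differently. With 1 replicate letter left out, the edgeR FDR was 0.0674 to 0.149 for SD minus LD at ZT12. It was 0.0693 and 0.0698 for SD minus EQ at ZT12 without B and without C, and 0.0877 and 0.0730 for LD minus EQ at ZT16 without A and without C. In 1 fit of all 54 libraries, which shares the spread over time points, the FDR was 0.106, 0.0555 and 0.345. Summing PHOT2 with AT5G58150 left -0.39 (FDR = 0.0936), -0.38 (FDR = 0.0424) and 0.23 (FDR = 0.192).

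The other members gave no call at single times in edgeR. PHOT1 was tested in all 18 comparisons and had 4 with an unadjusted p under 0.05, its lowest FDR being 0.174. SD minus LD of PHOT1 at ZT04 was 0.77 (FDR = 0.399), with 154, 150 and 110 counts in SD and 86, 81 and 90 in LD. The lowest FDR was 0.229 for PHYE, 0.247 for PHYA, 0.427 for PHYB, 0.479 for CRY1 and 0.664 for CRY2.

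Light minus dark contrasts asked whether receptor transcripts stood higher at harvests in light than at harvests in darkness within a photoperiod. By the labels, ZT00 was harvested in darkness and the last time point of the light period in light, so SD had 6 light and 12 dark libraries, EQ 9 and 9, and LD 12 and 6. Light state and time of day are tied within a photoperiod, so these contrasts cannot tell them apart. In SD 18.4%, in EQ 17.0% and in LD 13.4% of all genes passed, beside 1, 2 and 1 of the 8 members.

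PHOT1 was higher in light in SD and in EQ by about the same factor. In SD its counts were 63, 99 and 88 at ZT00, 154, 150 and 110 at ZT04, and 123, 55 and 73 at ZT08. After dusk they were 51, 39 and 40 at ZT12, 49, 88 and 78 at ZT16, and 36, 42 and 62 at ZT20. The ZT04 libraries lay above every dark library of SD.

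In EQ, PHOT1 had 42 counts in each of the 3 libraries at ZT00, 74, 107 and 93 at ZT04, and 122, 164 and 94 at ZT08. It had 50, 106 and 59 counts at ZT12, 48, 42 and 41 at ZT16, and 44, 44 and 75 at ZT20. In CPM, light libraries of EQ ran from 14.8 to 47.2 with a median of 30.4, and dark libraries from 12.0 to 21.7 with a median of 13.5, so the 2 sets overlapped only at their edges.

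In LD, PHOT1 had 75, 15 and 49 counts at ZT00, 86, 81 and 90 at ZT04, and 96, 94 and 76 at ZT08. It had 55, 74 and 44 at ZT12, 87, 53 and 37 at ZT16, and 34, 68 and 53 at ZT20. Light libraries of LD ran from 10.2 to 35.1 CPM with a median of 25.4 and dark libraries from 5.80 to 21.2 with a median of 15.4, an overlap wider than in EQ. In SD the light libraries ran from 16.7 to 50.3 CPM with a median of 37.8, and the dark libraries from 9.55 to 27.9 with a median of 15.3.

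The log2 fold change of PHOT1 for light minus dark was 1.0 for SD (SE 0.194, FDR = 0.000124), 1.01 for EQ (SE 0.191, FDR = 8.86e-05) and 0.55 for LD (SE 0.205, FDR = 0.0688), all by edgeR. The SD and EQ calls held in every alternative run for them, leave-one-out fits included. The LD value passed with DESeq2 (FDR = 0.0139), with RLE size factors (FDR = 0.0386) and with a minimum count of 30 (FDR = 0.0207). The difference between photoperiods was tested and did not pass, at -0.01 for SD minus EQ (SE 0.269), 0.44 for SD minus LD (SE 0.281, FDR = 0.606) and -0.45 for LD minus EQ (SE 0.275, FDR = 0.648). At ZT12, dark in SD only, PHOT1 gave -0.20 for SD minus LD (SE 0.302) and -0.60 for SD minus EQ (SE 0.246). At ZT16, light in LD only, it gave 0.18 for SD minus LD (SE 0.388) and 0.27 for LD minus EQ (SE 0.358). None of these same-hour values passed in edgeR, and the part of light in the PHOT1 contrasts was not tested.

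Over the 6 time points PHOT1 was the only member called for time of day in edgeR, and it was called in every photoperiod. Its edgeR FDR was 5.57e-05 for SD, 0.000228 for EQ and 0.0213 for LD, where 17.4%, 15.0% and 13.3% of all genes passed. Mean CPM was highest at ZT04 in SD (47.5 ± 4.51), at ZT08 in EQ (41.1 ± 6.89) and at ZT08 in LD (29.9 ± 4.64, standard deviation, n = 3 each). In EQ and in LD the ZT04 and ZT08 libraries overlapped, and in SD the ZT04 libraries lay above those of ZT08. The LD call rested on all 3 replicates, the FDR being 0.0520 to 0.451 with 1 left out and 0.0642 with no filter on low counts, and the photoperiod by time interaction of PHOT1 had an FDR of 0.104.

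**Figure D4:**
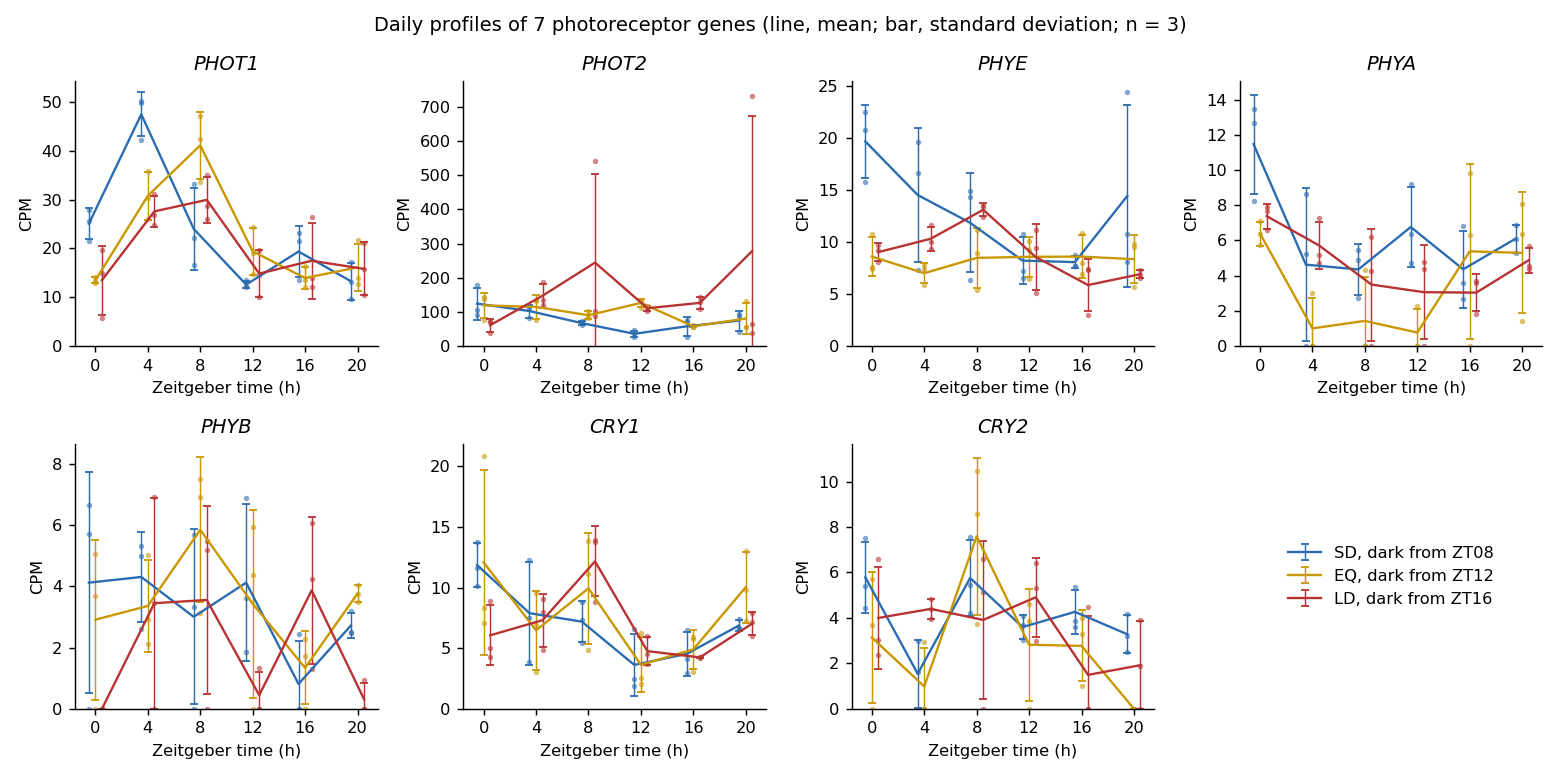
Mean CPM (vertical axes, 1 scale per gene) of 7 photoreceptor genes over zeitgeber time (horizontal axes, h) in SD, EQ and LD, with points for the 3 libraries of a group and bars for the standard deviation. PHOT1 has its highest mean at ZT04 in SD (47.5 CPM), while its ZT04 and ZT08 libraries overlap in EQ and LD, PHYE stands highest at ZT00 in SD (19.7 CPM), and the wide PHOT2 bars at ZT08 and ZT20 in LD come from 1 library each.

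PHYA and PHYB were each called in 1 photoperiod, in opposite directions. In EQ, PHYA fell in the light: it had 0, 9 and 0 counts at ZT04, 0, 0 and 12 at ZT08 and 0, 10 and 0 at ZT12, against 17, 20 and 23 at ZT00, 0, 22 and 30 at ZT16 and 28, 20 and 5 at ZT20 in darkness. The light libraries summed to 31 counts with 6 of 9 at 0, and the dark libraries to 165 counts with 1 of 9 at 0. The log2 fold change was -2.40 (SE 0.833, FDR = 0.0408, edgeR), and it was -2.37 (FDR = 0.0721) with no filter, -1.91 (FDR = 0.278) without replicate A and -2.13 (FDR = 0.190) without harvests at a change of light. PHYA gave -0.58 in SD (FDR = 0.816) and -0.70 in LD (FDR = 0.759). The difference between SD and EQ in this contrast was 1.81 (FDR = 0.856), so the photoperiods are not shown to differ.

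In LD, PHYB was higher in light. It had 11, 0 and 20 counts at ZT04, 0, 17 and 16 at ZT08, 0, 5 and 0 at ZT12 and 14, 23 and 4 at ZT16, against 0 in all 3 libraries at ZT00 and 0, 3 and 0 at ZT20. The 12 light libraries summed to 110 counts with 4 at 0, and the 6 dark libraries to 3 counts with 5 at 0, a ratio per unit of depth of 17.7 (exact 95% interval 5.91 to 87.3, counting error only). That interval leaves out the spread between replicates. The edgeR fit, which includes it, gave a log2 fold change of 4.26 (SE 1.37, 95% interval 1.49 to 7.04, FDR = 0.0317). That call was lost with no filter (FDR = 0.0504), without harvests at a change of light (FDR = 0.497), without the 2 libraries in which PHOT2 stood apart (FDR = 0.0976), without replicate A (FDR = 0.166) and without replicate C (FDR = 0.237). Without replicate B every dark LD library was at 0 and the fit gave no usable error. In SD and in EQ the PHYB contrasts were 0.52 (FDR = 0.909) and 0.72 (FDR = 0.777), and the difference of LD minus EQ was 3.54 (SE 1.54, FDR = 0.393). PHYB and PHYD are close in sequence, and how reads matching both were counted is not given in the sources used here.

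**Figure D5:**
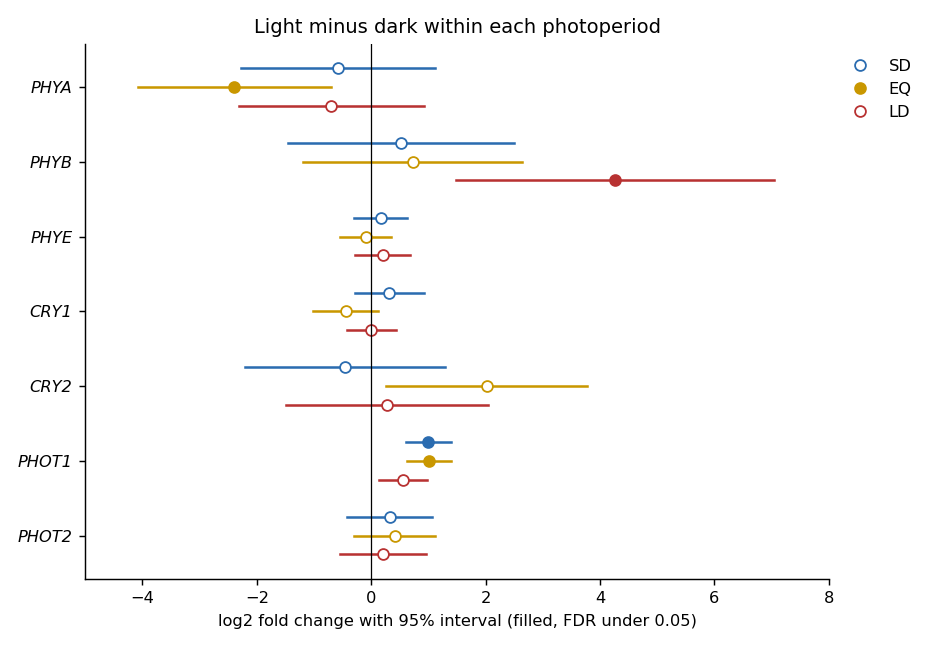
Light minus dark log2 fold change (horizontal axis) of 7 photoreceptor genes within SD, EQ and LD, with 95% intervals and filled points where the FDR was under 0.05. PHOT1 is near 1 in SD (1.0) and EQ (1.01), PHYA is at -2.40 in EQ, and PHYB in LD has the widest interval of all.

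The remaining members had no light call. CRY2 gave 2.02 in EQ (SE 0.871, FDR = 0.114), where its 9 light libraries summed to 109 counts and its 9 dark libraries to 56. Its EQ counts were 0, 0 and 9 at ZT04, 30, 13 and 24 at ZT08 and 13, 20 and 0 at ZT12 in light, against 17, 0 and 12 at ZT00, 3, 14 and 10 at ZT16 and 0 in all 3 libraries at ZT20. CRY1 gave 0.32 in SD, -0.45 in EQ and 0.00 in LD, and PHYE 0.16, -0.09 and 0.20, none with an FDR under 0.340. The edgeR time of day test put CRY1 at an FDR of 0.0606 in EQ and PHYE at 0.0563 in SD, short of the threshold. Both passed with DESeq2 (0.00998 and 0.00856) and at a minimum count of 30 (0.0366 and 0.0378), and PHYE also with the replicate letter as a block (0.0275). CRY1 was highest at ZT00 in SD (11.8 ± 1.80 CPM) and EQ (12.1 ± 7.64), and at ZT08 in LD (12.2 ± 2.88, standard deviation, n = 3 each).

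PHOT2 gave 0.32 in SD, 0.41 in EQ and 0.20 in LD for light minus dark with all libraries, and none passed in edgeR. The LD value turned with the replicate left out, at 1.62 (FDR = 0.00415) without replicate A, -0.09 (FDR = 1.0) without B and -0.29 (FDR = 0.952) without C. Without LD ZT08 replicate C and LD ZT20 replicate A, the 11 light libraries of LD had 241 to 611 PHOT2 counts (median 419) and the 5 dark libraries 101 to 272 (median 216). In CPM those sets did not overlap, at 88.1 to 187 in light and 37.1 to 72.5 in darkness. The LD contrast was then 1.08 (SE 0.247, FDR = 0.00189, edgeR), and the interaction of photoperiod and time, at an FDR of 0.160 with all libraries, was at 0.00307. The time of day FDR of PHOT2 was then 0.00296 in SD and 0.0197 in LD. This choice of libraries followed the PHOT2 values themselves, so these figures are a description of the other 52 libraries.

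Tests of whether the daily pattern differed between photoperiods called 9.42% of all genes and 0 of the 8 members in edgeR. PHOT1 and PHOT2 had an unadjusted p under 0.05, and DESeq2 called both, with an adjusted p of 0.00351 and 0.0274. The light minus dark difference between photoperiods was called for none of the members in edgeR, among 397 genes for SD minus LD, 44 for SD minus EQ and 68 for LD minus EQ. Of these, PHYB had an unadjusted p under 0.05 for SD minus LD and LD minus EQ, and CRY2 for SD minus EQ.

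Likeness of daily pattern was described by Pearson's r of mean log2 CPM over the 18 groups, which share libraries, depth and time of harvest. The genes named are the 3 highest r per member among all tested genes with a mean of at least 1 CPM. No background of r was drawn, so how high such a pick comes out by itself was not tested. The closest pattern to PHOT1 was that of PIF4, a bHLH factor that phytochromes bind in light, with r = 0.92, followed by MYBL2 (0.88) and AT1G09623 (0.86). PIF4, at 0 in 29 of 54 libraries, averaged 3.05 CPM and MYBL2 1.77 CPM. For PHYA it was IAA2, an auxin-responsive repressor (0.89), AT4G05070 (0.85) and AT3G60300 (0.84), and for CRY1 AT5G59070 (0.85), the chlorophyll-binding protein gene LHCB4.2 (0.85) and AT1G35420 (0.82). PHYE was nearest to AT4G12450 (0.81), PLDP1 (0.74) and PHOS34 (0.74), CRY2 to AT3G05675 (0.75), AT5G10620 (0.72) and AT2G36320 (0.72), and PHYB to AT4G22240 (0.73), AT1G49140 (0.72) and TET3 (0.72). For PHOT2, whose LD means include the 2 libraries that stood apart, it was AT4G13990 (0.83), AT2G34460 (0.81) and PSAK (0.81). Among the members themselves the highest r was 0.54 for PHYE with CRY1 and 0.51 for PHYB with PHOT1.

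Around the receptors, 41 genes of their pathways were listed, from pigment synthesis to partner proteins and ubiquitin ligases, and 33 were tested. Between SD and LD over the day, 2 were higher and 2 lower in SD, where 12.0% of all genes passed, and the list had a median log2 fold change of 0.04 against -0.06 for all genes. Between SD and EQ 0 were higher and 1 lower, where 4.99% of all genes passed, and between LD and EQ, where 1.35% of all genes passed, 0 passed in either direction in edgeR, with 1 at an unadjusted p under 0.05. For light minus dark, 4 were higher and 3 lower in SD, 4 and 6 in EQ, and 3 and 3 in LD, where 18.4%, 17.0% and 13.4% of all genes passed, with list medians of 0.01, -0.15 and -0.03 beside 0.04, 0.03 and -0.01 for all genes. None of the 5 tested genes among COP1, SPA1 to SPA4 and DET1 passed in these 6 comparisons in edgeR. At an unadjusted p under 0.05 there were 0 or 1 of these genes in each. COP1 and SPA proteins form a ubiquitin ligase that degrades light-signalling factors in darkness.

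The 4 genes that passed between SD and LD belong to the branches of 3 receptor classes. RUP1, a repressor of the UV-B receptor, rose by 0.83 on the log2 scale (SE 0.239, FDR = 0.0150) and PIF5, a phytochrome-interacting factor, by 0.52 (SE 0.173, FDR = 0.0417). AT3G44450 and AT3G52740, listed among cryptochrome partners, fell in SD by 2.29 (FDR = 0.000843) and by 1.17 (FDR = 0.0349). At ZT12 AT3G44450 was at 0 in all 3 SD libraries, against 3.30 ± 1.34 CPM in LD and 4.70 ± 1.49 in EQ (standard deviation, n = 3). Of these 4 calls only that of AT3G44450 held in every leave-one-out fit, the others reaching an FDR of 0.257 (RUP1), 0.371 (PIF5) and 0.303 (AT3G52740). With no filter on low counts PIF5 (FDR = 0.0948) and AT3G52740 (FDR = 0.0629) also missed the threshold.

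In the light contrasts, HY2, which makes the phytochrome pigment, rose by 1.17 in SD, 0.91 in EQ and 1.23 in LD on the log2 scale, with FDR of 2.05e-06, 0.000121 and 6.82e-06 in edgeR. HY2 shares 144 bp with an opposite-strand gene. PIF4, at 0 in 29 of 54 libraries, passed in all 3 photoperiods (FDR = 0.0107, 0.000617 and 0.0104). Its highest means were 10.7 ± 3.86 CPM at ZT04 in SD, 9.32 ± 1.01 at ZT08 in EQ and 11.4 ± 7.83 at ZT04 in LD, and it was at 0 in the 9 dark libraries of EQ and the 6 of LD.

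PIF7, a further phytochrome-interacting factor, rose in light by 1.32 in SD (FDR = 8.35e-06) and 0.99 in EQ (FDR = 0.0006), and it overlaps an opposite-strand gene by 318 bp. AT3G44450 was higher in light in all 3 photoperiods, with 8.35 ± 0.764 CPM at ZT04 in SD, 9.51 ± 4.43 in EQ and 7.79 ± 1.71 in LD (standard deviation, n = 3), and FDR of 4.30e-06, 0.000135 and 0.0367.

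RUP1 was lower in light in all 3 photoperiods, its light minus dark value being -1.98 in SD, -2.01 in EQ and -1.15 in LD (FDR = 0.000149, 2.00e-05 and 0.0192). Of the 9 tested partners of the phototropins, 1 passed in each photoperiod, a different gene each time and lower in light, and the other 8 did not pass. PKS1 gave -0.45 in SD (FDR = 0.000735), RPT2, which links phot1 to phototropism, gave -1.94 in EQ (FDR = 0.00597), and PKS4 gave -1.15 in LD (FDR = 0.000155). A call in 1 photoperiod only is no test of a difference between photoperiods, and none is given for these genes. RPT2 was highest at ZT00 (60.5 CPM in SD, 51.6 in EQ, 34.9 in LD) and lowest at ZT12 (4.27, 1.92 and 3.02) in all 3 photoperiods. In EQ, HY5, LRB1 and UVR3 passed with lower values in light, at 0 in 23, 34 and 42 of all 54 libraries, and UVR3 passed in LD as well. PIF5 gave -0.86 in SD (FDR = 0.0192). In EQ 1 phytochrome-interacting factor was also called lower in light, and the rule of at most 5 per direction leaves that call unnamed. PIF5 means in EQ were 8.92 to 12.0 CPM in light and 17.7 to 25.1 in darkness. Without harvests at a change of light 8 of the 22 named light calls were lost. RPT2 in EQ, PKS4 in LD and PIF5 in SD then stood at -0.55 (FDR = 0.727), -0.08 (FDR = 1.0) and -0.26 (FDR = 0.764). The LD calls of PIF4 (FDR = 0.0736), AT3G44450 (FDR = 0.170), RUP1 (FDR = 0.146) and UVR3 (FDR = 0.109) and the EQ call of UVR3 (FDR = 0.133) were lost as well. With any 1 replicate left out, the light calls of HY2 held in all 3 photoperiods, and those of AT3G44450 and RUP1 in SD and EQ. So did those of PIF7 and PKS1 in SD, of PIF4 in EQ and of PKS4 in LD. Each of the other named light calls was lost at least once.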

How the data were processed

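The deposited table holds raw counts per gene for 54 libraries. The authors trimmed reads with Trimmomatic 0.39, aligned them to TAIR10 with HISAT2 2.1.0 under a strand setting, and derived counts with StringTie 2.1.2, which computes them from coverage. The library kit named in the labels does not mark strand. The 92 spike-in rows were left out.

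The fit used edgeR 4.0.16 under R 4.3.3, with filterByExpr at a minimum count of 10, TMM scaling, glmQLFit and glmQLFTest over all 18 groups, and Benjamini-Hochberg adjustment over the 14115 genes that passed. Single time points were fitted for each pair of groups. DESeq2 1.42.0 was an alternative, beside RLE scaling, no filter, a minimum count of 30, a replicate block, leaving out each replicate and leaving out harvests at a change of light. For correlations 0.5 was added to CPM before log2. Integrals used the trapezoid rule with ZT00 repeated at 24 h.

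Names, overlaps and promoter sequences came from RefSeq for TAIR10.1, in which all 10 members matched by identifier. The members, the pathway and marker lists and the tests were chosen with earlier results of these data known. By rule the text names all members, pathway genes past the threshold in day-wide SD minus LD or a light contrast (at most 5 per direction), genes opposite a member, and the 3 most alike patterns per member with a mean of at least 1 CPM.

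Replicate letters did not pair the samples: deviations from group means had a median correlation of 0.0023 between same-letter libraries of other groups. Replicate pairs differed by 24.0 to 73.2 times the counting noise (chi-square per degree of freedom, 54 pairs), so no library was counted as a duplicate. At 2430049 to 4124570 counts per library, members with fewer than about 10 counts are imprecise.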

Additional observations from a re-analysis of the deposited data

How the results depend on the processing

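The light minus dark call in SD kept its count of 1 member under every alternative, and no called value changed sign. For day-wide SD minus LD (2 members) the count was 3 with DESeq2, 1 with no filter on low counts, 0 without LD ZT08 C and LD ZT20 A, and 0 to 1 with 1 replicate left out. For day-wide SD minus EQ (1) it was 0 with no filter and 0 to 0 with 1 replicate left out. For light minus dark in EQ (2) it was 1 with no filter, 1 without harvests at a change of light and 1 to 2 with 1 replicate left out. For light minus dark in LD (1) it was 0 with no filter, 2 with RLE size factors, 2 with DESeq2, 0 without harvests at a change of light and 0 to 1 with 1 replicate left out. The 1 there, without replicate A, and the 1 without the 2 LD libraries were PHOT2, not PHYB. For the photoperiod by time interaction (0) it was 1 at a minimum count of 30, 2 with DESeq2 and 1 without the 2 LD libraries. For time of day in SD (1) it was 2 at a minimum count of 30, 3 with DESeq2, 2 with the replicate block, 2 without the 2 LD libraries and 2 with PHOT2 and AT5G58150 summed. For time of day in EQ (1) it was 2 at a minimum count of 30, 3 with DESeq2 and 2 with both genes summed. For time of day in LD (1) it was 0 with no filter, 3 with DESeq2, 2 without the 2 LD libraries and 0 to 1 with 1 replicate left out. For the time-point comparisons (1 member in at least 1) it was 3 with DESeq2, 0 in 1 fit of all 54 libraries and 0 to 1 with 1 replicate left out. Integrals put 6 of the 9 members other than CRY3 higher in SD than in LD, and 5 to 7 under the alternatives. That count was not tested or set beside the share over all genes, so no lean towards SD is read from it. The 6 include CRY1 at a log2 ratio of 0.01 (SE 0.149) and CRY2 at 0.23 (SE 0.248). PHYC and PHYD, among those lower in SD, did not pass the filter.

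The letters do not pair the samples, and the replicate block moved 2 member calls: time of day of PHYE in SD came to an FDR of 0.0275, and SD minus LD of PHOT2 at ZT12 to 0.0819. Without a filter the FDR of PHYE was 0.0933 for SD minus LD and 0.0802 for SD minus EQ. Of 26 calls of named pathway genes, 12 were lost without replicate A, 11 without B, 11 without C, 5 with no filter and 1 with the replicate block, and 8 of 22 light calls without harvests at a change of light. Over all genes DESeq2 called 1355 against 705 in edgeR for SD minus EQ, 573 against 191 for LD minus EQ and 2312 against 1330 for the interaction, and no filter gave 110 for LD minus EQ. Light minus dark in LD called 1045 genes without harvests at a change of light, against 1886, and 52.4% of its calls were higher in light with DESeq2, against 42.4%. With 1 replicate left out the counts over all genes fell to at least 889 of 1696 for SD minus LD, 126 of 705 for SD minus EQ, 15 of 191 for LD minus EQ, 1645 of 2591, 1517 of 2393 and 1146 of 1886 for light minus dark in SD, EQ and LD, 602 of 1330 for the interaction, and 1509 of 2461, 1252 of 2114 and 1075 of 1873 for time of day in SD, EQ and LD. Fits of fewer libraries have less power by construction, and the cause of the other changes was not tested. Low counts and zeros limit PHYA, PHYB and CRY2. PHYC and PHYD did not pass the filter, and CRY3 passed it without a usable fit.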
